A study of Mus musculus with 4 samples.

Results

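Messenger RNA levels of the NF-kB subunits and of the genes that restrain NF-kB signaling were followed across 4 microarrays of mouse bone marrow cultures. The set was fixed by name at 10 genes: the subunits Nfkb1, Nfkb2, Rela and Relb and the inhibitors Nfkbia, Nfkbiz, Tnfaip3, Tnip1, Tnip3 and Zc3h12a. A probe set with that single gene symbol was found for 9 of them, out of 19938 genes with such a probe set, and each of the 9 had 1 probe set. Nfkb1 was not analysed here.

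Marrow of Bach1 (+/+) mice, called wild type here, and of Bach1 (-/-) mice, both on the B6 background, was grown with 20 ng/ml GM-CSF, a growth factor that drives marrow cells toward adherent macrophages and dendritic-type cells. After 6 days the cultures received heme at 40 µM (the labels give the unit as µm) or its vehicle, an ammonium hydroxide solution in saline, and the cells that still adhered 24 hours later were collected. Bach1 encodes a repressor of transcription that binds heme and then leaves DNA, and the series title puts Spic, a transcription factor gene of red pulp macrophages, under its control. With 1 array for each of the 4 groups, no difference has a replicate error or a p-value, and the number of mice pooled for an array was not stated in the labels.

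NF-kB is a family of dimeric transcription factors built from Rela, Relb, Rel and the processed products of Nfkb1 and Nfkb2. In resting macrophages the dimers are held in the cytoplasm by inhibitor proteins such as the product of Nfkbia, and signals from Toll-like, TNF and IL-1 receptors lead to its destruction. The released dimers switch on cytokine and chemokine genes and, with them, several of their own inhibitors, which is a classic negative feedback in these cells.

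The signal of Bach1 itself was 212.0 with vehicle and 264.3 with heme in wild type, and 211.3 and 204.4 on the arrays labelled Bach1 (-/-). It did not tell the genotypes apart, and the sources used here do not say whether the probes cover the deletion. The genotype label is therefore unchecked by this signal, and "labelled knockout" is used for it throughout. Spic and Hmox1, a heme-degrading enzyme gene repressed by Bach1, read 17.0 and 1827.2 with vehicle in wild type, 429.0 and 9881.1 with heme there, and in the labelled knockout 298.0 and 9046.6 with vehicle and 678.5 and 10330.5 with heme. Medians of all 35556 probe sets lay between 30.4 and 31.4 on the 4 arrays. Of 18 macrophage and dendritic cell markers, 16 read above the median of all values on every array, among them Itgam, Csf2rb and Lyz2, while the dendritic cell markers Flt3 and Zbtb46 stayed below it on every array. All 10 mast cell and basophil markers and all 10 measured lymphocyte markers stayed below it on every array. The marker lists are described again beside the results they move with.

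Several of these genes are textbook targets of NF-kB themselves, and their start regions were examined for its motif. RefSeq promoter windows of assembly GRCm38.p6, from 250 bases before to 50 bases after a transcript start, were matched by symbol for 7 of the 10 genes. The kB consensus, the general binding motif of NF-kB, was searched on both strands, and overlapping matches were counted as separate. It stood in the windows of 5 of the 7 genes, against 8.46% of all 32851 windows and 9.55% of the 27025 genes that have one. Nfkb2 has 3 windows and Tnfaip3 has 2, which gives them more chances of a match, but each of the 5 held a match in its most upstream window. The 150 bases before that start are printed below, 5′ to 3′ along the gene, with kB matches in capitals, because all 5 matched genes carry the motif within this stretch. The stretches are chr19:46304587-46304736 on the plus strand for Nfkb2, chr12:55492648-55492797 on the minus strand for Nfkbia, chr10:19015411-19015560 on the minus strand for Tnfaip3, chr11:54962941-54963090 on the minus strand for Tnip1 and chr6:65590248-65590397 on the plus strand for Tnip3.
Nfkb2: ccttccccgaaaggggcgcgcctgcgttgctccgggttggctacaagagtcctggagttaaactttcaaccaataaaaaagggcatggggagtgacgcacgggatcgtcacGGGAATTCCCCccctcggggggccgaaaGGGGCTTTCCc
Nfkbia: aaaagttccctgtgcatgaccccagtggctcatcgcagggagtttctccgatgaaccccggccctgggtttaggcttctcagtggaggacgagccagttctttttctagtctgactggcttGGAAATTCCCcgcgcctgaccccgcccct
Tnfaip3: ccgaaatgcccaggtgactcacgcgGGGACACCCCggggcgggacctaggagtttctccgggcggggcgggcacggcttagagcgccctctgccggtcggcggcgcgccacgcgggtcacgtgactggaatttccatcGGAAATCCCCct
Tnip1: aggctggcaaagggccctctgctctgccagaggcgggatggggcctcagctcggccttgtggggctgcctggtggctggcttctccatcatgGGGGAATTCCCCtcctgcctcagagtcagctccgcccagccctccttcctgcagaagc
Tnip3: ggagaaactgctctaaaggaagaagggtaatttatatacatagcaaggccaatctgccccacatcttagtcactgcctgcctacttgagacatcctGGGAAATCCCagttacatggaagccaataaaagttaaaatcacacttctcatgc

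In Nfkbia the match began 29 bases upstream of the start, and in Tnip3 it began 54 bases upstream. The 3 matches of Tnip1 overlap and began 58, 57 and 56 bases upstream, while Tnfaip3 held separate ones at 125 and 12 bases. Nfkb2 held 2 overlapping matches at 39 and 38 bases and a further one at 11 bases. No kB match stood in the windows of Rela and Zc3h12a, which says only that those letters are not there. The AP-1 motif TGANTCA was found for Tnfaip3, 136 bases upstream and beside its distal kB match, and in the second window of Nfkb2. These are 2 of the 7 genes, against 7.81% of all windows and 8.97% of all genes with a window. The antioxidant response element core TGACNNNGC, part of the motif that Bach1 binds, was found once, in Nfkbia, 13 bases upstream. That is 1 of the 7 genes, against 12.4% of all windows and 14.0% of all genes with a window. These matches are letters in a window and no evidence of binding in these cells.

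**Figure D1:**
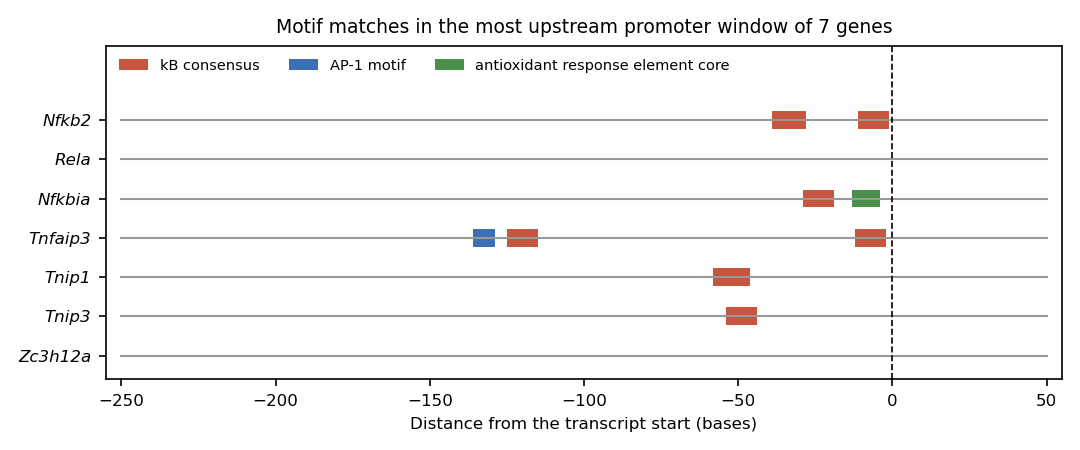
Matches to the kB consensus (red), the AP-1 motif (blue) and the antioxidant response element core (green) in the most upstream promoter window of 7 genes, by distance in bases from the transcript start (dashed line). The 5 genes with a kB match carry it within 125 bases of the start, and Rela and Zc3h12a have no match of the 3 motifs.

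Across the 4 arrays the members shared an order more than a size of difference. In 7 of 9, the signal was highest in wild-type heme and lowest in labelled knockout vehicle, an order seen in 10.4% of the 11155 genes at level, meaning that at least 1 array read 30.96 or more, which is the median of all values. The exceptions were Tnip1 and Zc3h12a. All 9 members read at or above that median on all 4 arrays, the lowest being Relb at 31.1 in labelled knockout vehicle, so no member entered a comparison through 1 bright array alone. This order was noticed in the data and then counted. In 4 of 9, Relb, Nfkbia, Tnfaip3 and Tnip3, the lowest and highest arrays lay 2-fold or more apart, against 6.29% of all genes at this level.

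**Figure D2:**
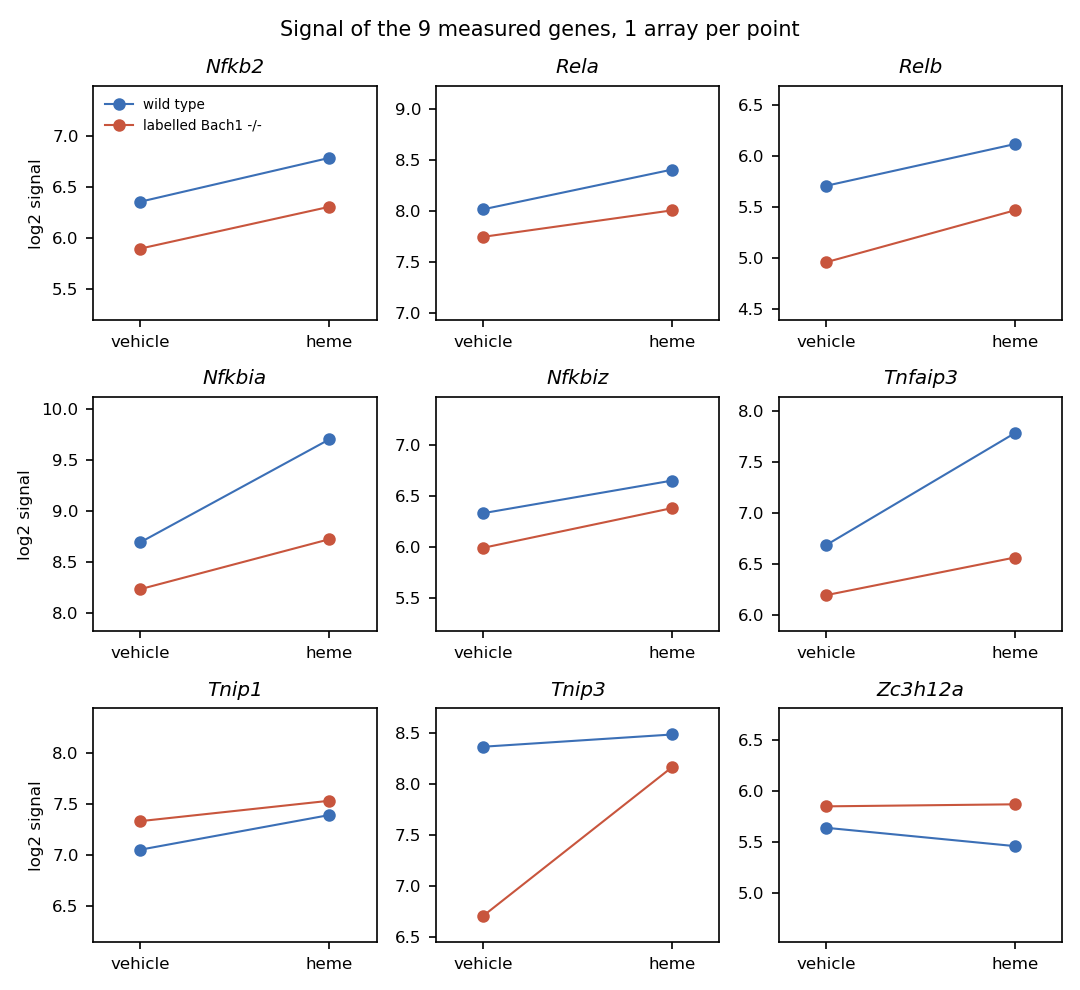
Log2 signal of the 9 measured genes with vehicle and heme, in wild type (blue) and labelled knockout (red), each point 1 array and each panel 2.3 log2 units high. Lines run nearly parallel for Nfkb2, Relb and Nfkbiz, steepen in wild type for Nfkbia and Tnfaip3, and steepen in the labelled knockout for Tnip3.

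The subunit genes came first in the comparison of genotypes and treatments, and none of the 3 reached 2-fold in any comparison. Rela, which encodes the main activating subunit p65, read 260.3 with vehicle and 339.2 with heme in wild type, and 215.3 and 258.2 in the labelled knockout. Its log2 difference with heme was 0.38 in wild type against 0.26 in the labelled knockout, and the labelled knockout was lower by a log2 difference of -0.27 in vehicle and -0.39 with heme. Wild-type vehicle and labelled knockout heme were nearly level.

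Nfkb2, whose product p100 is processed to p52 in the alternative pathway, read 82.3 with vehicle and 110.8 with heme in wild type, and 59.9 and 79.3 in the labelled knockout. The heme response was the same size in both genotypes, with log2 differences of 0.43 and 0.41. Labelled knockout arrays were lower by a similar amount in vehicle and with heme, -0.46 and -0.48. Relb, the partner of p52, read 52.2, 69.4, 31.1 and 44.2 in the same order of arrays. Both labelled knockout arrays lay below both wild-type arrays, with log2 differences of -0.75 in vehicle and -0.65 with heme, the widest gap between genotypes of the 3 subunits in each treatment. The heme responses of Relb were 0.41 and 0.51, and the labelled knockout vehicle signal lies at the median of all values, where no detection call says how much of it is background. With 32 added to each signal before log2, the gap in vehicle shrank to -0.42.

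The cytoplasmic inhibitors of the dimers were next. Nfkbia, which encodes IkB alpha, read 412.8 with vehicle and 830.8 with heme in wild type, and 300.6 and 422.7 in the labelled knockout. Wild-type heme stood apart from the other 3 arrays, 1.97-fold above the next. The signal of Nfkbia with heme was 2.01-fold that of vehicle in wild type and 1.41-fold in the labelled knockout, and with heme the labelled knockout was 1.97-fold lower than wild type. The first of these lies just past 2-fold and the last just short of it. Nfkbiz encodes IkB zeta, a nuclear member of the family that promotes a subset of NF-kB targets and does not retain dimers in the cytoplasm. It read 80.6 with vehicle and 100.6 with heme in wild type, and 63.5 and 83.1 in the labelled knockout, and its heme responses of 0.32 and 0.39 were close in size.

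Tnfaip3 encodes A20, a ubiquitin-editing enzyme that stops signaling above the kinase complex. Its signal was 102.6 with vehicle and 219.8 with heme in wild type, and 72.8 and 94.6 in the labelled knockout. Wild-type heme alone stood 2.14-fold above every other array, a position that 0.161% of genes at level had on that array, and no other member had it on any array. The heme response was 2.14-fold in wild type and 1.30-fold in the labelled knockout, and with heme the labelled knockout was 2.32-fold lower. In vehicle the gap between genotypes was 1.41-fold. The calls for Nfkbia and Tnfaip3 in wild type and for Tnfaip3 between genotypes all use the wild-type heme array.

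Tnip3 had the widest range of the members, 3.43-fold, with 1 array far below the rest. Its product ABIN-3 is an A20-binding protein, and its effect on NF-kB was not measured here. The signal was 330.9 with vehicle and 359.0 with heme in wild type, and 104.7 and 288.8 in the labelled knockout. Labelled knockout vehicle alone lay 2.76-fold below every other array, as for 0.143% of genes at level on that array, and the other 3 arrays lay within 1.24-fold of each other. Tnip3 was thus 3.16-fold lower in the labelled knockout than in wild type in vehicle and 1.24-fold lower with heme, and 2.76-fold higher with heme in the labelled knockout against 1.08-fold in wild type. It ranked 37 of 10859 genes at level by size of difference in the first of these comparisons and 38 of 10843 in the heme response of the labelled knockout. Both rest on the same labelled knockout vehicle array and are not independent of each other.

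Tnip1 and Zc3h12a had the narrowest ranges over the arrays, 1.39-fold and 1.32-fold. Tnip1, which encodes the related A20-binding protein ABIN-1, read 132.8 with vehicle and 168.1 with heme in wild type, and 160.8 and 184.5 in the labelled knockout. It was the single member with a higher signal in the labelled knockout (0.28 in vehicle and 0.13 with heme) that also read higher with heme in both genotypes (0.34 and 0.20). Zc3h12a encodes Regnase-1, an RNase that degrades cytokine messages such as that of Il6. It read 49.9, 44.1, 57.7 and 58.3 in the same order of arrays, with a log2 difference of -0.18 with heme in wild type against 0.02 in the labelled knockout. The last value changed sign under alternative processing and lies far inside the spread of all genes.

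Counted by the 2-fold rule, few members were called. With heme in wild type, 2 of 9 were higher, Nfkbia and Tnfaip3, and 0 lower, against 1.17% of genes at level that were higher and 0.900% lower. With heme in the labelled knockout, 1 of 9 was higher, Tnip3, against 1.20% of genes, and 0 were lower, against 0.452%. In vehicle 1 of 9 was lower in the labelled knockout, again Tnip3, against 1.14% of genes, and 0 were higher, against 0.525%. With heme, 1 of 9 was lower in the labelled knockout, Tnfaip3, against 0.973%, and 0 were higher, against 0.528%. With 32 added to each signal, which compresses dim genes, the wild-type heme responses of Nfkbia and Tnfaip3 were 0.96 and 0.90 and the difference of Tnfaip3 between genotypes with heme was -0.99, each just under 2-fold.

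Smaller differences ran mostly one way. The median member was higher with heme by 0.38 in wild type against 0.39 in the labelled knockout, where the medians of all genes at level were -0.01 and 0.02. In the labelled knockout it was lower by -0.46 in vehicle and -0.39 with heme, beside medians of -0.02 and 0.01 for all genes. The heme comparisons in the 2 genotypes share no array, and 8 of 9 members were higher with heme in both, against 30.7% of genes. The genotype comparisons in vehicle and with heme share no array either, and 7 of 9 members were lower in the labelled knockout in both, against 28.7% of genes. Both counts come from the same 4 arrays and are not independent of each other. A gene with the order described above, noticed in the data, meets both conditions by definition. The 7 members with that order are therefore counted again in both, and the counts add no separate support to it. For scale, log2 differences of all genes at level had a robust SD (from the median absolute deviation) of 0.25 to 0.28 in these 4 comparisons, a spread that holds both noise and real differences. Beyond it, in either direction, lay 7 of 9 members for heme in wild type, 6 of 9 for heme in the labelled knockout and 8 of 9 in each genotype comparison. The 8 include Tnip1 in vehicle (0.28) and Zc3h12a with heme (0.40), both higher in the labelled knockout. The share of all genes beyond this spread was not counted, and it is large, as ranks by size of members near the cut show. Rela, just inside it at 0.26 for heme in the labelled knockout, ranked 3859 of 10843 genes. Between genotypes, Rela at -0.27 in vehicle ranked 3584 of 10859 and Nfkbiz at -0.28 with heme ranked 3249 of 10790. These counts therefore say little about the members. Nfkbiz, beyond it at 0.32 for heme in wild type, ranked 3148 of 10772 genes by size.

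**Figure D3:**
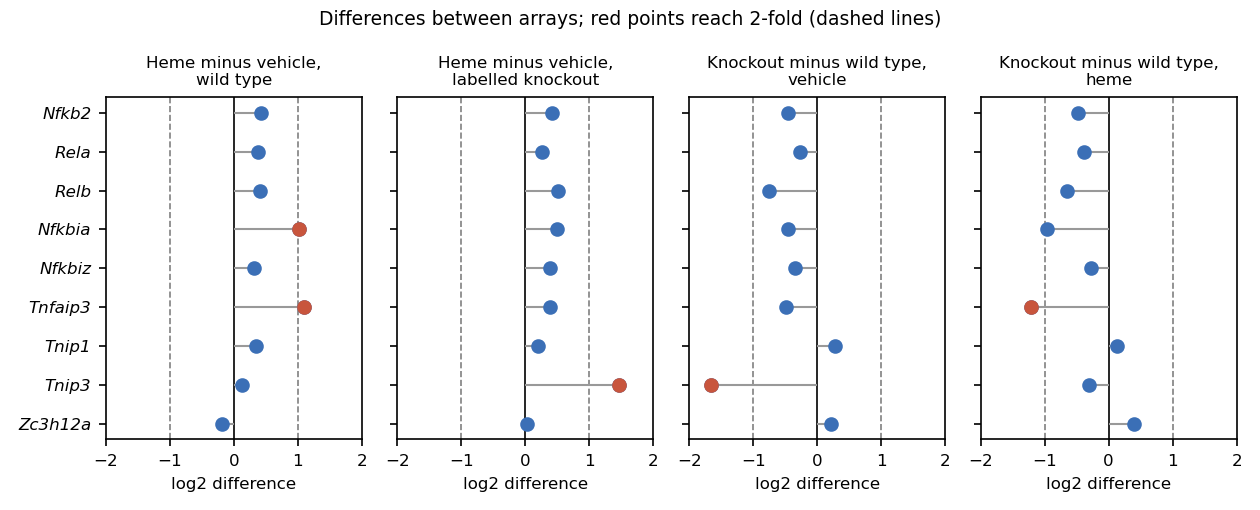
Log2 difference of each member in the 4 comparisons of 2 arrays, with dashed lines at 2-fold and red points for values that reach it. Red points are Nfkbia and Tnfaip3 for heme in wild type, Tnip3 for heme in the labelled knockout and for genotype in vehicle, and Tnfaip3 for genotype with heme.

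Whether the heme response depended on the genotype label was read from the difference of the 2 heme responses, which uses every array once. For Nfkb2, Relb and Nfkbiz it was -0.02, 0.09 and 0.07, so that heme and genotype added up nearly without remainder on the log2 scale. Tnip3 had a value of 1.35, a 2.54-fold larger response in the labelled knockout, and was the 1 member of 9 past 2-fold, against 1.17% of genes in that direction. Tnfaip3 and Nfkbia had values of -0.72 and -0.52, smaller responses in the labelled knockout, and 0 of 9 members passed 2-fold that way, against 0.879% of genes. The robust SD over all genes was 0.32 for this quantity. With 1 array a group, none of these differences could be tested.

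The genes most alike in profile to the 4 members with a 2-fold range were found by the distance between log2 profiles, each centred on its own mean over the 4 arrays, among 702 genes with such a range. Nfkbia and Tnfaip3 were each other's nearest gene, at a distance of 0.173 log2 units. Next to Nfkbia were Htr2a (0.173) and Alyref2 (0.210), and next to Tnfaip3 were Alyref2 (0.193) and the chemokine gene Ccl5 (0.245). Relb lay nearest to Cd69 (0.0539), an activation marker of leukocytes, then Haao (0.111) and Nup43 (0.128). Tnip3 lay nearest to Rnase6 (0.176), which read 331.1 and 331.4 in wild type and 98.5 and 243.6 in the labelled knockout, vehicle first, then to Mthfd2 (0.323) and Lpcat2 (0.329). With 4 arrays many profiles resemble each other, and these distances are descriptions.

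Other genes of the pathway were counted by the same 2-fold rule, for which the background shares above hold. Among the 6 other Rel and IkB genes, 1 was called higher with heme in wild type, 0 were called lower, and none reached 2-fold elsewhere. That gene was Nfkbie, which encodes IkB epsilon, a further inhibitor induced by NF-kB: it read 49.5 and 106.9 in wild type and 46.2 and 56.2 in the labelled knockout, vehicle first, with wild-type heme above the other 3. Bcl3, a nuclear IkB protein, was higher with heme by 0.62 in wild type against 0.99 in the labelled knockout, and Nfkbib, which encodes IkB beta, by 0.59 and 0.52. Rel, which encodes c-Rel, differed with heme by 0.23 and -0.20 and was lower in the labelled knockout with heme by a log2 difference of -0.64. The median of these 6 genes was 0.41 with heme in wild type against 0.12 in the labelled knockout.

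Of 26 measured kinases, adaptors and ubiquitin ligases upstream of NF-kB, 2 reached 2-fold upward and 0 downward with heme in wild type, and the list median was 0.01. They were Traf1 (1.18) and the ligase gene Birc3 (1.19), both known targets of NF-kB, and their heme responses in the labelled knockout were 0.74 and 0.58. None of the 26 reached 2-fold with heme in the labelled knockout, where Ikbke (0.93) and Tbk1 (0.76), the IKK-related kinases, differed most. The paracaspase gene Malt1 read 584.8 and 537.1 on the wild-type arrays and 262.5 and 219.6 on the labelled knockout arrays. It was the single gene of the list called between genotypes, lower in vehicle (-1.16) and with heme (-1.29).

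Among 24 ubiquitin and RNA-decay regulators, N4bp1 was 2-fold higher with heme in wild type (1.07), with 0 lower, and none was called with heme in the labelled knockout. Zc3h12c, a relative of Zc3h12a, and Zfp36l1, which promotes decay of AU-rich messages, were 2-fold lower in the labelled knockout in both treatments. Zc3h12c read 415.2 and 471.3 in wild type and 178.3 and 210.3 in the labelled knockout, vehicle first. Zfp36l1 read 1057.6 and 1318.7 in wild type and 502.3 and 578.6 in the labelled knockout. Zc3h12a itself read higher there, by 0.21 in vehicle and 0.40 with heme. The list median was 0.01 with heme in wild type, 0.06 in the labelled knockout and -0.07 and -0.05 between genotypes.

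Target genes of NF-kB were read from a list of 40, of which 33 to 35 reached the median of all values in a comparison. With heme in wild type 10 were 2-fold higher and none lower, and the median of the 40 was 0.52. The largest differences were those of Il6, which was 16.0-fold higher, and of Acod1 (2.65), Cxcl3 (2.21) and Cxcl2 (2.14), and the wild-type vehicle signal of Il6, 7.8, lay below the level filter. In the labelled knockout 5 were higher with heme and 0 lower, with a median of 0.24, among them Saa3 (2.02), Acod1 (1.71), Sod2 (1.31) and Cxcl3 (1.13). Between genotypes in vehicle, 2 were higher in the labelled knockout, Nos2 (2.00) and Ccrl2 (1.18), and 1 lower, Ccl22 (-2.30), with a median of -0.21. With heme in both, 8 were lower, among them Ccl22 (-2.99), Il6 (-2.30), Acod1 (-1.49) and Ccl5 (-1.34), and 1 was higher, Ccrl2 again (1.18), with a median of -0.37. The difference of heme responses was past 2-fold toward a smaller response in the labelled knockout for 4 of 40, Nos2 (-2.25), Il6 (-1.96), Cxcl2 (-1.20) and Cxcl3 (-1.08), and for 0 the other way, with a median of -0.23. The Nos2 values that use wild-type vehicle rest on a signal of 24.4 there, below the median of all values. The list holds several genes whose size of response in these arrays was known when it was made.

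**Figure D4:**
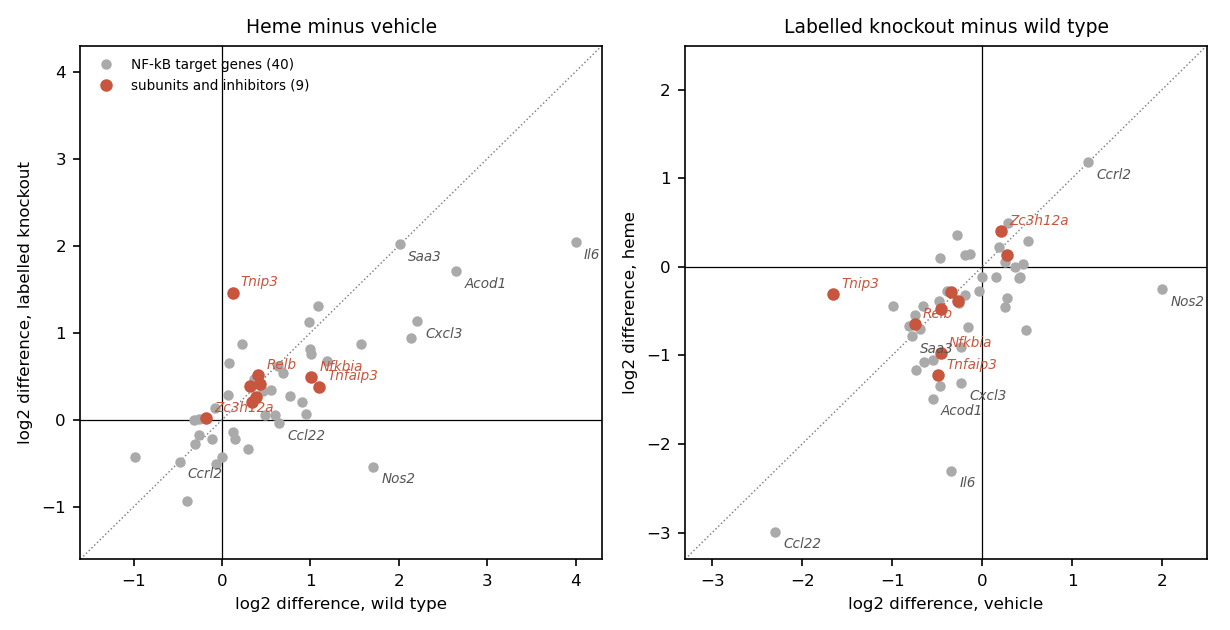
Log2 differences of the 9 members (red) and 40 NF-kB target genes (grey): heme minus vehicle in the labelled knockout against wild type (left), and labelled knockout minus wild type with heme against vehicle (right), where the dotted line marks equal values and the axes of a panel share no array. Tnfaip3 and Nfkbia lie below the line on both panels, like Il6, Acod1 and Cxcl3, and Tnip3 lies above it on both; a gene's distance from the line is its difference of heme responses in either panel.

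Transcripts tied to Nfkbiz and Zc3h12a by their products' known roles were described next. Of 6 measured genes that depend on IkB zeta in macrophages, Csf2 and Csf3 stayed below the median of all values on every array. Called higher with heme were Il6 and Lcn2 (1.57) in wild type and none in the labelled knockout. There Il6 read 6.15 with vehicle and 25.3 with heme, a log2 difference of 2.04 that was not called because both signals lay below the median of all values. Ebi3 differed with heme by 0.41 and 0.49. Of 10 messages degraded by Regnase-1, Il6 was the 1 called higher with heme in wild type, and the 1 called lower was the transferrin receptor gene Tfrc (-1.11), which differed by -0.88 in the labelled knockout. Ptgs2, another of them, differed by 0.07 and 0.28. The list medians were 0.28 and 0.25 for the IkB zeta genes and 0.07 and 0.07 for the Regnase-1 messages. The Regnase-1 list includes the members Nfkbiz and Zc3h12a themselves. Il6, among others, stands in both lists and among the target genes above, so its calls recur in each.

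Markers of several cell types differed alongside these genes. In bulk cultures, fewer cells of a type and less RNA per cell cannot be told apart. The summed signal of 15 neutrophil markers was 11897 with vehicle and 15448 with heme in wild type, and 10392 and 13067 in the labelled knockout. S100a8 and S100a9 make up most of this sum, at 4243.2 and 3906.0 with vehicle in wild type against 3213.4 and 2933.1 in the labelled knockout. Most of the other markers lay the other way: in vehicle, 11 of the 15 had a log2 difference above 0 in the labelled knockout, the list median was 0.14, and Retnlg was called higher (1.36). With heme, 9 of the 15 were below 0 in the labelled knockout, with a median of -0.07, and Cxcr2 was called lower (-1.22). Heme minus vehicle was above 0 for 15 of the 15 in wild type, with a median of 0.40. In the labelled knockout it was above 0 for 13, with a median of 0.20. With heme in wild type 4 of the 15 were 2-fold higher, Cxcr2 (1.60), Mmp9 (1.29), Retnlg (1.22) and Prtn3 (1.20), and Ly6g, a defining marker, read 107.6 and 178.9 in wild type and 59.2 and 110.9 in the labelled knockout, vehicle first. The wild-type vehicle signal of Prtn3, 21.2, lay below the median of all values. The neutrophil elastase gene Elane stayed below that median on every array. Of the macrophage and dendritic cell markers, 5 of 18 were 2-fold lower in the labelled knockout in vehicle and 4 of 18 with heme, among them Cd74 (-1.95 and -1.80), H2-Eb1 (-1.96 and -1.92) and Ccr7 (-1.37 and -1.42), a marker of mature dendritic cells. Some others were level or higher there, among them Adgre1 (0.13 and 0.31), Cd68 (0.06 and 0.34) and Lyz2 (0.08 and 0.02). In each treatment 13 of the 18 were below 0 and 5 above, with medians of -0.31 and -0.20. The summed signal of the 18 was 30924 and 28235 in wild type and 25445 and 24857 in the labelled knockout, vehicle first. Cd74, at 3399.4 and 2879.2 in wild type and 877.1 and 828.7 in the labelled knockout, made up much of that gap. Of the stromal and endothelial markers, 5 of 10 stayed below the median of all values on every array, the summed signal ran from 228 to 302, and Kdr was 2-fold lower in the labelled knockout in vehicle. The part of these cells in the differences of the NF-kB genes was not tested.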

How the data were processed

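Expression was measured on 4 arrays of 1 mouse whole-transcript design. The deposited values are linear intensity that the authors had normalized with RMA, per the submitters' processing notes. They hold no background or detection call. The series' design text speaks of ArrayStar and of sorted progenitors, not these cultures, and the sample labels were followed. Of 35556 probe sets, 21789 carried a single gene symbol in the array annotation, and the probe set with the highest mean stood for each of 19938 genes.

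Differences are between log2 signals of 2 arrays, named by the first minus the second. A gene was at level when the brighter of both arrays lay at or above the median of all values, and called at 2-fold or more, with no p-value. The list of members and the other lists were chosen with earlier results of these data known. All members were named in every comparison, and of each other list up to 4 genes at level with the largest differences were eligible. For members with a 2-fold range over the arrays, the 3 genes nearest in profile were named, predicted genes left out. Named for their roles, after their values were seen, were Bach1, Spic, Hmox1, Elane, Ly6g, Itgam, Csf2rb, Lyz2, Adgre1, Cd68, Flt3, Zbtb46, Csf2 and Csf3. Genes without a probe set of a single symbol were not analysed here: Irak4, Traf3, Chuk, Ripk1 and C3, among others. Calls were tested on simulated data for the wild-type heme comparison, with changes larger than 2-fold planted in genes above the level filter. Changes close to 2-fold were not simulated. The number of arrays limits the precision. Signals were handled with pandas 2.3.3 and numpy 2.4.6 in Python 3.11.15, lowess came from statsmodels 0.14.6, and figures were drawn with matplotlib 3.10.9.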

Additional observations from a re-analysis of the deposited data

Results flagged for a closer look

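Some genes named above had differences of opposite direction under the same contrast, each larger than the robust SD of its comparison. No such difference could be tested, since every group was 1 array. Nos2, which encodes the inducible nitric oxide synthase, differed with heme by 1.71 in wild type and by -0.54 in the labelled knockout, a difference of -2.25, and its genotype difference was 2.00 in vehicle and -0.25 with heme, also -2.25 apart. It read 24.4 and 80.2 in wild type and 97.8 and 67.3 in the labelled knockout, vehicle first. The wild-type vehicle signal lay below the median of all values, and both reversals rest on it. Otud7b, a deubiquitinase gene of the pathway, differed with heme by 0.40 and -0.33, and between genotypes by 0.31 in vehicle and -0.42 with heme, each a difference of -0.73. Otud7b was dim, at 36.2 and 48.0 in wild type and 45.1 and 35.9 in the labelled knockout, vehicle first. Cxcl2 was higher in the labelled knockout in vehicle (0.49) and lower with heme (-0.71), a difference of -1.20. For the neutrophil marker Prtn3 the genotype differences were 0.84 and -0.42, or -1.26 apart. Prtn3 was dim, at 21.2 and 48.7 in wild type and 38.0 and 36.4 in the labelled knockout, vehicle first. Its wild-type vehicle signal lay below the median of all values. The collagen gene Col1a1 differed with heme by 0.43 and -0.37 and between genotypes by 0.35 and -0.45, a difference of -0.80 for each. Col1a1 was dim as well, at 38.3 and 51.7 in wild type and 48.9 and 37.8 in the labelled knockout, vehicle first. No member was among these genes.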

How the results depend on the processing

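With a 1.5-fold rule, the members lower in the labelled knockout numbered 2 in vehicle and 3 with heme, and 1 member had a smaller heme response in the labelled knockout. By that rule 469 of 10859 genes at level were lower in the labelled knockout in vehicle and 370 of 10790 with heme. A smaller heme response there was counted for 574 of 11155 genes. With a 3-fold rule, 0 members were called higher with heme in wild type, 0 higher with heme in the labelled knockout, 0 lower in the labelled knockout with heme and 0 by the difference of heme responses. Among all genes at level the 3-fold counts were 32 of 10772, 20 of 10843 and 28 of 10790 for the first 3. For the difference of heme responses they were 15 higher and 18 lower of 11155. With 32 added to each signal, 0 members were called with heme in wild type, and 0 were lower in the labelled knockout with heme. Among all genes at level, 50 were then higher and 37 lower of 10772 with heme in wild type. In the labelled knockout with heme, 49 of 10790 were lower. The other counts of members stayed within 1.5 times their value under a filter at the 75th percentile or on the mean of the 4 arrays, no filter, repeated quantile normalization, lowess centring and the mean of probe sets, the last of which changes nothing for members with 1 probe set. The counts of members of like direction and order were tried with repeated quantile normalization and, except for the order, with lowess centring, chosen after seeing the data. Of 45 member values, 1 changed sign under an alternative, the heme response of Zc3h12a in the labelled knockout (-0.02 with repeated quantile normalization). Of the 40 target genes, 6 to 19 were higher with heme in wild type, 2 to 13 higher with heme in the labelled knockout, 1 to 9 lower in the labelled knockout in vehicle and 2 to 14 with heme, and 2 to 10 had a smaller heme response in the labelled knockout across the alternatives. The highest of these counts came with the 1.5-fold rule, by which more of all genes were called too. With heme, 537 of 10772 were higher in wild type by that rule and 545 of 10843 in the labelled knockout. No paired analysis was possible because each group is 1 array.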
